A study of Homo sapiens with 19 samples.

Results

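Mesenchymal cells are the matrix-producing cells of connective tissue, among them fibroblasts and, in the liver, the stellate cells that store vitamin A and turn into contractile, collagen-secreting myofibroblasts after injury. They were taken here from human liver organoids of the PA experiment, as the cells with at least 500 detected genes, at most 20% mitochondrial counts, at least 2 UMIs (unique molecular identifiers, 1 for each captured RNA molecule) of COL1A2 and COL3A1 together that made up at least 0.1% of the cell's UMIs, and 0 UMIs of the epithelial gene EPCAM. The cells were thus selected on their own COL1A2, COL3A1 and EPCAM counts. This gate held 1209 of the 24859 cells that passed the first 2 conditions: 161 and 416 in the control libraries, replicates 1 and 2, and 255 and 377 in the PA libraries. The organoids were made from W01, an established human pluripotent stem cell line of wild-type genotype distributed by WiCell, so every library comes from 1 line. Organoids on an orbital shaker were cultured for 20 days, treated for 5 days and sampled on day 25, with PA at 500 µM (n = 2 libraries) or with its control (n = 2). The labels do not spell out PA; in fatty liver work the letters usually stand for palmitic acid, a saturated fatty acid. What the control organoids received is not given in the sources used here. A second treatment of the series, the growth factor TGFB1, given at 10 ng/ml and with its own control, also n = 2 each and also day 25, gave 1598 cells under the same rule. The labels do not say whether the 2 libraries of a group came from separate cultures, so the p-values measure the spread between libraries, which may be technical.

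A saturated fatty acid in excess is known to load cells with lipid droplets, to engage PPAR nuclear receptors that switch on fat-handling genes, and to start NF-kB signalling, which drives chemokine genes. A myofibroblast is recognised by smooth muscle proteins such as α-smooth muscle actin (ACTA2), calponin and transgelin, whose genes are read by serum response factor with myocardin-family partners, and which TGF-β is known to raise. Levels below are CPM, the counts of a gene scaled to a common library total, from the UMIs summed over the gated cells of a library. The chemistry captures the 3′ end of each RNA, so CPM was not divided by gene length. The sums held 310162 and 2746328 UMIs in control replicates 1 and 2, and 612169 and 2009254 in PA replicates 1 and 2, so replicate 1 was the shallow library of both groups. The median gated cell held 1638 and 5315 UMIs in the controls and 2035 and 4600.0 with PA. A count of 0 allows up to 9.67 CPM in control replicate 1 and 1.09 in control replicate 2 (3 counts, counting error only). Barcodes shared by any pair of the 4 libraries numbered 4 to 23, none of them among gated cells.

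The gated cells carried a connective tissue profile in every library. All 13 mesenchymal markers outside the gate were detected in all 4 libraries. Apart from the 2 gate collagens, the genes that stood highest over the EPCAM-positive cells of the same library were COL6A3, PRRX1 (a limb and craniofacial mesenchyme transcription factor), MGP (matrix Gla protein, an inhibitor of calcification), EMILIN1 and THY1. COL6A3, a chain of type VI collagen, stood at 789.9 and 947 CPM in the controls and 709 and 785 CPM with PA, against 1.52 and 4.29 in EPCAM-positive control cells and 2.1 and 2.61 in those with PA. PRRX1 was at 371 and 289 CPM in the controls and 629 and 288 with PA. COL1A1, the partner chain of the gate gene COL1A2, reached 1738 and 2126 CPM in the controls and 1127 and 1839 with PA, and the levels overlapped between the groups. FBN1 (fibrillin), EDNRA (an endothelin receptor), TBX2, PTN, LGALS1, SULF1, CRABP1, COL5A1, PDGFRB, ACTA2, POSTN, MMP2, PDGFRA and BGN completed the 20 genes of largest ratio among those of at least 100 CPM on average, each at least 29.8 times its EPCAM-positive level in every library (1 CPM added to both levels). The genes of highest level were shared with the epithelium: MALAT1, ACTB, TMSB10, PTMA, FTH1, RPLP1, GAPDH, TPM1, SERF2 and EEF1A1. Since the gate used COL1A2 and COL3A1 to choose the cells, none of these differences was tested. Of the gate genes, COL1A2 stood at 1277 and 1305 CPM in the controls and 1183 and 1475 with PA. COL3A1 stood at 1479.9 and 1972 CPM in the controls and 1256 and 2079 with PA. At the edge of the gate, 8, 13, 18 and 12 cells in control 1, control 2, PA 1 and PA 2 had a share of 0.1 to 0.12%, and 65, 109, 103 and 95 cells were outside it with 1 UMI.

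Markers of other lineages set limits to the name. Endothelial markers were mixed. PECAM1 had 0, 1, 0 and 1 UMIs over the 4 libraries, CDH5 had 0, 1, 0 and 1, and VWF had 0 in each. The VEGF receptor FLT1 in contrast stood at 54.8 and 30.9 CPM in the controls and 24.5 and 55.2 with PA, EMCN (endomucin) at 45.1 and 40.8 against 37.6 and 27.4, and the transcription factor ERG at 22.6 and 18.2 against 31 and 12.9, each above its EPCAM-positive level in every library and still present without clusters 3 and 4, described below. EGFL7 stood at 54.8 and 54.6 against 75.1 and 60.2 CPM, below its EPCAM-positive level. The 12 endothelial markers summed to 162 to 184 CPM, 93.2 to 125% of their EPCAM-positive sum. The neural or glial list was present too: its 10 genes summed to 326 to 432 CPM, 147 to 182% of the EPCAM-positive sum. Most of this was STMN2, a neuronal microtubule regulator, at 232 and 338 CPM in the controls and 346 and 276 with PA, while SOX10 (neural crest glia) had 0 in all 4 libraries. The leukocyte gene PTPRC had 1 UMI in control 2 and 0 elsewhere, but 3 of the 10 leukocyte genes were detected in all 4 libraries, CORO1A (coronin) among them at 6.45 and 5.83 CPM in the controls and 8.17 and 7.47 with PA, and the list summed to 11.4 to 22.6 CPM, 45.9 to 143% of its EPCAM-positive sum. The muscle regulator MYOD1 had 0 in all 4, while 3 of the 11 muscle genes were detected in each, TNNT1 and MYL4 among them, and that list summed to 9.67 to 32 CPM, 82.7 to 248%. Whether a few cells of these lineages lie in the gate was not tested. The 10 smooth muscle and pericyte genes summed to 896 and 1121.5 CPM in the controls and 516 and 509 with PA. This was 575 to 1250% of their EPCAM-positive sum. Of the genes used to recognise hepatic stellate cells, some were present and others nearly absent. PDGFRB, IGFBP3, NES, ALCAM and RGS5 stood at 47.3 CPM or more in every library without clusters 3 and 4. HAND2, a mesenchymal transcription factor, stood at 48.4 and 56.8 CPM in the controls and 44.1 and 52.8 with PA, against at most 0.849 in EPCAM-positive cells. By contrast LRAT, the retinol esterifying enzyme of stellate cells, had 1 UMI in all, LHX2 had 2, and the muscle filament gene DES had 0, 6, 4 and 6. Epithelial and hepatocyte genes were present at a low level. The 11 epithelial markers other than EPCAM summed to 1151 to 1385 CPM, which was 15.96 to 21.1% of their sum in EPCAM-positive cells, and the 14 hepatocyte markers summed to 643 to 1012 CPM, which was 2.29 to 3.73%.

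The gated cells were not of 1 kind. Clustering gave 5 clusters, described here with no test. Cluster 0 (407 cells) had SHOX2, TOP2A, CRABP1 and MME among its leading genes; SHOX2 is a homeobox gene of limb mesenchyme and TOP2A a DNA topoisomerase of dividing cells. Cluster 1 (365 cells) was led by MGP, TDO2, NNMT, IGFBP3 and SCG2, and its summed level of the 13 mesenchymal markers outside the gate, 13015 CPM, was the highest of the 5. Cluster 2 (203 cells) was led by PDE1A, HAND1, ALDH1A1, PMEL and SLITRK6. Cluster 3 (73 cells) was led by S100A8, S100A9, SPRR1B, IGFL2-AS1 and SFN, genes of squamous epithelium, and held no ACTA2 UMI in any library. Cluster 4 (161 cells) was led by ONECUT2, AFP, TTR, SERPINA1 and AMBP, genes of liver epithelium, with 5028 CPM of hepatocyte markers beside 5798 CPM of mesenchymal ones outside the gate. The leading genes of clusters 3 and 4 go against the mesenchymal name. These 2 clusters made up 18.6 and 14.4% of the gated cells in the controls and 14.5 and 28.4% with PA, so results are also given without them, an alternative chosen after the data were seen. Without them the hepatocyte markers still summed to 133 and 204 CPM in the controls and to 272 and 452 CPM with PA.

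**Figure D1:**
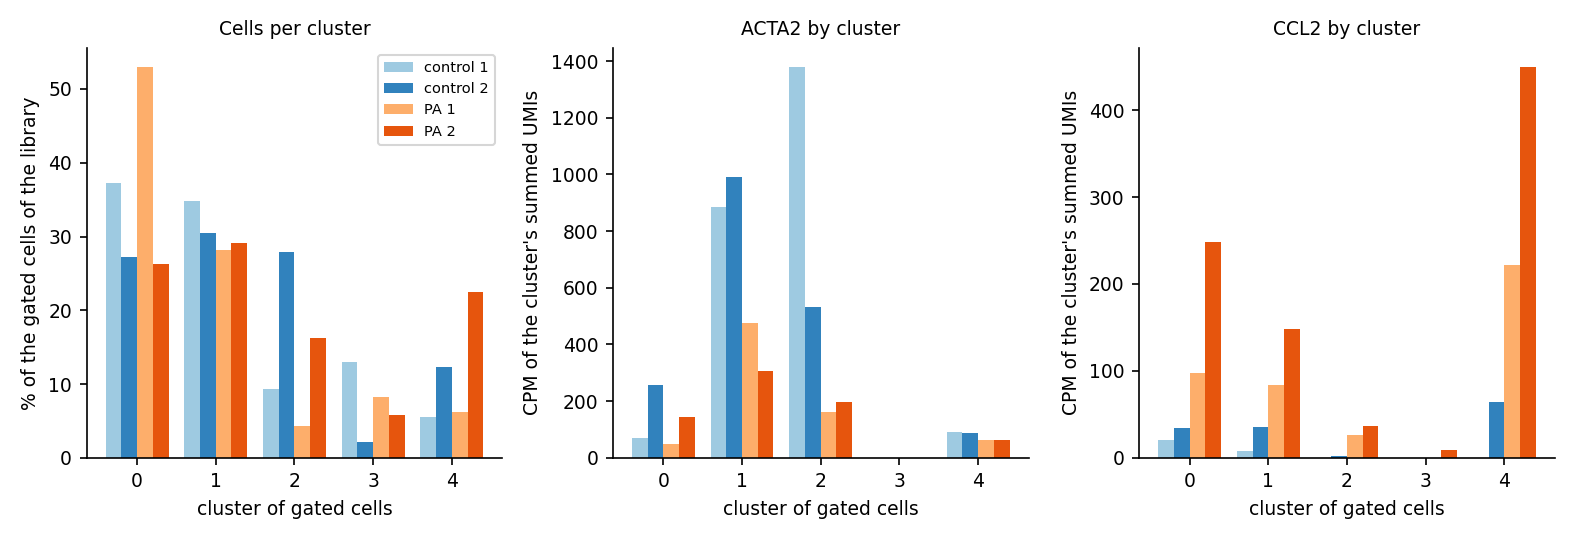
Left, percent of each library's gated cells in each of the 5 clusters; middle and right, CPM of ACTA2 and CCL2 in the summed UMIs of each cluster and library. Clusters 0 and 1 together held most cells in all 4 libraries; ACTA2 was highest in clusters 1 and 2 and absent from cluster 3, and CCL2 was lower in both controls than in both PA libraries within clusters 0, 1, 2 and 4.

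Gated cells made up 5.02% (95% exact binomial interval 4.29 to 5.84) and 7.24% (6.59 to 7.95) of kept cells in the controls and 3.33% (2.94 to 3.75) and 4.57% (4.13 to 5.04) with PA. The means were 6.13% ± 1.57 in the controls and 3.95% ± 0.879 with PA (SD, n = 2 each), a difference of -2.19 percentage points. The ranges of the groups did not overlap, but 2 libraries against 2 cannot give an exact two-sided permutation p below 0.3333, the value obtained. When each cell was thinned to 2000 UMIs, 111, 62, 123 and 56 of the gated cells were left out as too shallow. The gate was applied again to the thinned counts and held 56, 457, 168 and 464 cells, some of them outside the gate before thinning. The shares were then 4.33 and 10.1% in the controls and 3.46 and 6.31% with PA and overlapped, as they did with a stricter gate, with predicted doublets removed and with no EPCAM condition. In dissociated cells a lower share of a cell type and a lower recovery of it cannot be told apart.

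PA against control was then tested gene by gene on the summed counts (edgeR quasi-likelihood test, Benjamini-Hochberg adjustment over 9534 genes). No gene passed an adjusted p of 0.05, which is 0% of the genes tested. An unadjusted p under 0.05 was found for 173, 95 of them higher with PA (0.996% of the genes) and 78 lower (0.818%). This is no excess over the share that such a threshold passes where no gene differs. DESeq2 on the same sums called 2 genes, CCL2 higher and ACTA2 lower. The values below are therefore measurements on 2 libraries a group, and differences are not described as changes. Of 89 genes followed through the alternatives, leaving out 1 library turned the sign of the fold change for 13 and moved it by over 1.5 times for 40 more. Both PA libraries lay above both controls for 1212 genes (12.7%) and below both for 1131 (11.9%). The median log2 fold change of all genes tested was 0.0087.

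Smooth muscle and myofibroblast genes lay on the lower side with PA. Of the 18 contractile genes listed, 16 could be tested; their median log2 fold change was -0.43, 14 had a fold change below 0, and in 8 both PA libraries lay below both controls, against 11.9% of all genes. Both PA libraries lay above the controls for none of the 16. The median was -0.28 without PA replicate 2 and -0.15 with a stricter cell filter. ACTA2 (chr10:88935074-88991339, minus strand, GRCh38) stood at 493 and 659.8 CPM in the controls and 201 and 187 CPM with PA. The groups did not overlap, with a log2 fold change of -1.60 (SE 0.31), an edgeR adjusted p of 0.255 and, with DESeq2, -1.60 and an adjusted p of 0.011. ACTG2, the enteric smooth muscle actin (chr2:73892314-73919865), was at 90.3 and 143 CPM and, with PA, at 44.1 and 16.9, a log2 fold change of -2.15 (SE 0.43). MYLK, the myosin light chain kinase that triggers contraction (chr3:123610049-123884332), was at 67.7 and 103 CPM against 18 and 26.4 with PA, a log2 fold change of -1.94 (SE 0.36). CNN1, calponin of differentiated smooth muscle (chr19:11538767-11550323), was at 45.1 and 53.9 CPM against 13.1 and 25.9, -1.27 (SE 0.39) on the log2 scale. The edgeR adjusted p-values were 0.277 for ACTG2, 0.255 for MYLK and 1 for CNN1. These 4 were the contractile genes with an unadjusted p under 0.05, all lower (all genes, 0.818%).

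Other contractile members were less far apart. TAGLN (transgelin) was at 1354 and 1937 CPM in the controls and 1402 and 1323 CPM with PA, so that the groups overlapped. TPM1 (tropomyosin) was at 3953 and 3043 CPM in the controls and 3826 and 3131 with PA, with a log2 fold change of -0.04 (SE 0.28), and CALD1 (caldesmon) had -0.04 (SE 0.28). MYL9, the regulatory light chain that MYLK acts on, was at 1432 and 1236 CPM in the controls and lower in both PA libraries at 1124 and 656, with a log2 fold change of -0.62 (SE 0.32), and CNN2, a calponin of many cell types, was at 348 and 279 against 278 and 182 CPM (log2 -0.48, SE 0.33). SYNPO2 and TAGLN2 were the 2 members with fold changes above 0, at 0.62 and 0.25.

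**Figure D2:**
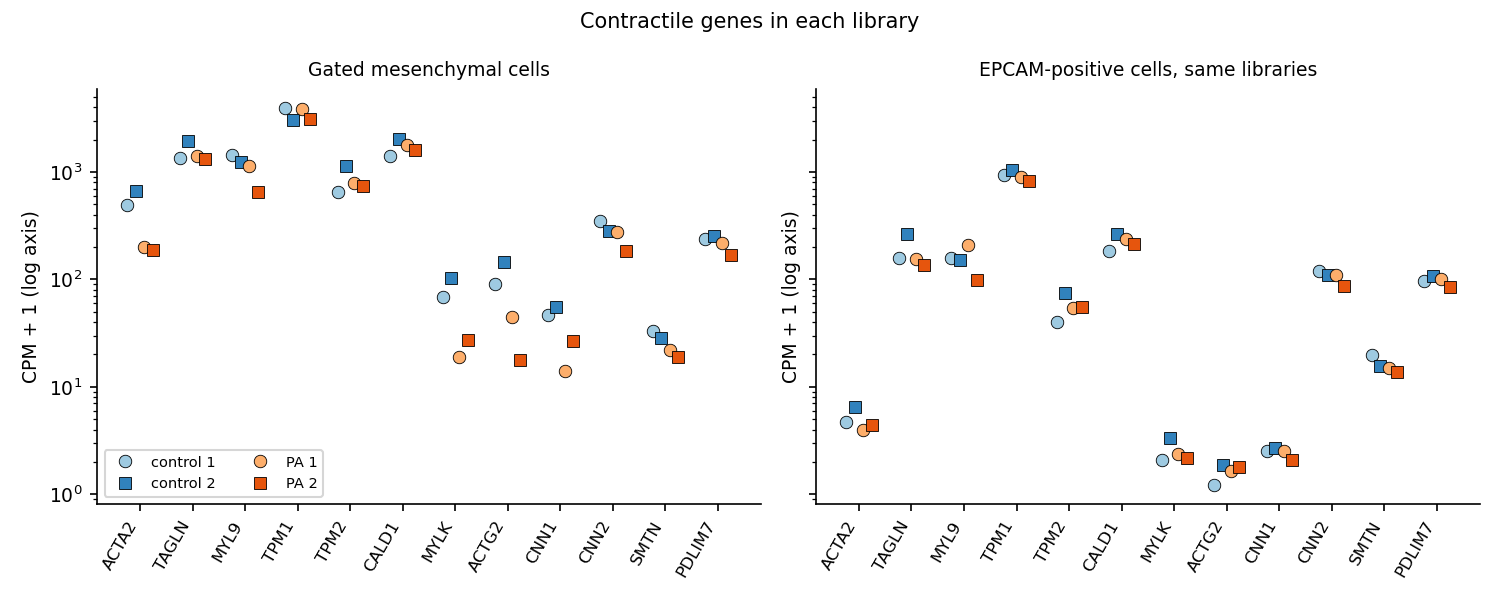
CPM + 1 (log axis) of 12 contractile genes in each of the 4 libraries, gated cells on the left and EPCAM-positive cells of the same libraries on the right. In gated cells ACTA2, MYLK, ACTG2 and CNN1 lie lower in both PA libraries than in both controls, while TAGLN, TPM1, TPM2 and CALD1 overlap.

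Depth and cell makeup moved with the libraries, so ACTA2 was read in several ways. It was lower with PA in the shallow pair (493 against 201 CPM) and in the deep pair (659.8 against 187). In the cells inside the gate after thinning to 2000 UMIs, a set that differs from the gated cells, 25 and 29.8% of control cells and 11.9 and 12.1% of PA cells had an ACTA2 UMI (26.1, 40.4, 11.4 and 19.9% unthinned), beside 0.385 to 1.12% of thinned EPCAM-positive cells. Without clusters 3 and 4 the levels were 609.8 and 699 CPM in the controls and 229 and 235 with PA. In cluster 0, the largest, they overlapped, at 71 and 257 CPM in the controls and 47.1 and 143 with PA. Within cluster 1 they were 885 and 992 CPM against 474 and 305, and within cluster 2 1378 and 532 against 160.5 and 196. Cluster 2, in which ACTG2 was highest, held 9.32 and 27.9% of the gated cells in the controls and 4.31 and 16.2% with PA. In cluster 1 ACTG2 overlapped, at 80.4 and 88.8 CPM in the controls and 93 and 16.6 with PA. Within cluster 2 it was at 567 and 304 CPM in the controls and 134 and 47.6 with PA. The log2 fold change stayed below 0 in all 16 alternative settings for ACTA2 (-1.75 to -0.98), ACTG2 (-2.84 to -1.501), MYLK (-2.35 to -1.32) and CNN1 (-1.99 to -0.70). ACTA2 passed the adjusted test in 4 of the 16.

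CArG boxes, the sequence that serum response factor binds, were looked for in RefSeq promoters (250 bases before to 50 after the start, GRCh38.p14) on both strands. The promoters of 14 of the 16 tested contractile genes were in the table, and 3 held a match, ACTG2, MYLK and CNN2, against 1.29% of all 35116 promoters. The 2 of these whose genes were lowest with PA are shown, on their own strand with the CArG boxes in capitals. The ACTG2 window (chr2:73892758-73893057, plus strand) has its matches 110 and 73 bases before the start, and the MYLK window (chr3:123620499-123620798, minus strand) has one 94 bases before it. The MYLK window lies inside the gene, far downstream of the gene's annotated 5′ end given above. It belongs to an internal start and not to that of the longest transcript. Counts of the 3′ end do not tell such transcripts apart, so the MYLK levels are not assigned to either start. The ACTG2 window also lies inside its gene, nearer to the annotated 5′ end.
ACTG2: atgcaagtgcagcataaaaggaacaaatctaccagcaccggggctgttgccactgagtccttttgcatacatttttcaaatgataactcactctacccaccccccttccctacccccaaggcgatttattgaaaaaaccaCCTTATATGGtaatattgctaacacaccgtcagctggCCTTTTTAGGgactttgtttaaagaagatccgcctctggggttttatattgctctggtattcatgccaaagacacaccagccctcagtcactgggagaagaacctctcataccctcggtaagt
MYLK: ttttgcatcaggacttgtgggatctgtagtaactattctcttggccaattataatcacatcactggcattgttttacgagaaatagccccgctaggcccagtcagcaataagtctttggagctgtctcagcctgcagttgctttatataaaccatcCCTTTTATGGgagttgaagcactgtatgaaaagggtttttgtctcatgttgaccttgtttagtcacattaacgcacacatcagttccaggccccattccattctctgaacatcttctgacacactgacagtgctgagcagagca
The ACTA2 and CNN1 windows held no match. The ACTA2 window (chr10:88991288-88991587, minus strand) lies at the annotated 5′ end of the gene. Starts inside the ACTA2 gene were not searched, so CArG boxes there would not be seen. A match describes these letters in this window and does not show that the site is used.

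Chemokine genes lay on the higher side. Of 22 chemokine and cytokine genes, 10 could be tested; all 10 had a fold change above 0 (51% of all genes did), the median log2 fold change was 0.89, and both PA libraries lay above both controls for 5, against 12.7% of all genes. The list rested on PA replicate 2: without it the median was 0.00721 and 4 of 8 tested genes were above 0. Without clusters 3 and 4 the median was 0.85, with 7 of 9 above 0. CCL20 and CXCL5 passed the count filter only through the PA libraries, which tilts the tally of tested genes. With no count filter the median was 0.96, with 17 of 19 above 0. CCL2 (chr17:34255274-34257208), which recruits monocytes, stood at 9.67 and 26.9 CPM in the controls and 86.6 and 202 with PA. Each PA library was above each control, the log2 fold change was 2.73 (SE 0.47), and the adjusted p was 0.255 with edgeR and 0.011 with DESeq2. CCL2 stood higher in gated than in EPCAM-positive cells in 3 of the 4 libraries: its level was 75.7 and 306% of the EPCAM-positive level in the controls and 706 and 532% with PA. Without clusters 3 and 4 it was at 12.1 and 25.3 CPM in the controls and 87 and 149 with PA. The shallow control held 3 CCL2 UMIs in all, and the estimate ranged from 1.89 to 3.83 over 16 alternatives, in 6 of which it passed the adjusted test.

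CCL20, which draws CCR6-bearing lymphocytes, had the largest fold change of the list, from 0 and 1.82 CPM in the controls to 14.7 and 35.8 with PA (log2 4.05, SE 0.69, edgeR adjusted p = 0.255). It was seen in 0, 5, 9 and 72 UMIs, and the fitted fold change depends on these small counts. Leaving out 1 library gave 3.88 to 7.73 for CCL20. The CCL20 level was 4.51, 4.29 and 3.72% of that in EPCAM-positive cells in control 2, PA 1 and PA 2. This was near the 2.29 to 3.73% at which hepatocyte markers stood. CCL20 was highest in cluster 4, at 127 and 95.2 CPM with PA. Without clusters 3 and 4 CCL20 was at 0 and 0.389 CPM in the controls and 9.46 and 22.2 with PA. The part of free epithelial RNA in the CCL20 counts was not tested. CXCL1, a neutrophil attractant, was at 25.8 and 26.2 CPM in the controls and 29.4 and 199 with PA. Its difference rested on PA replicate 2, and the log2 fold change of 2.21 (SE 0.64) was 0.15 without that library; without clusters 3 and 4 the groups overlapped. CXCL5 (6.45 and 4.01 against 11.4 and 15.4 CPM) and IL32 (29 and 32.8 against 58.8 and 62.7) were higher in both PA libraries, with log2 fold changes of 1.67 and 0.94. CXCL12 and CXCL14, the 2 most abundant chemokines of the list in the control cells, had 0.41 and 0.14. CXCL8 was not tested: 0, 0.438, 0.595 and 4.31% of the cells inside the gate after thinning had a UMI, below the 4.36, 3.16, 5.39 and 13.9% of EPCAM-positive cells.

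Genes of the NF-kB pathway, many of which encode its own inhibitors, followed the same direction. Of 23 listed, 19 were tested, 17 had fold changes above 0, both PA libraries lay above both controls for 11 and below for 1, and the median log2 fold change was 0.68. Over all genes 51% had a fold change above 0, and 12.7% were separated upward and 11.9% downward. ICAM1 passed the count filter only through the PA libraries. With no count filter the list median was 0.71, with 20 of 23 above 0. ZC3H12A, an RNase that destroys cytokine messages, was at 6.45 and 9.1 CPM in the controls and 16.3 and 33.3 with PA (log2 1.64, SE 0.48). ICAM1, a leukocyte adhesion receptor, was at 3.22 and 6.92 CPM against 8.17 and 26.4 (log2 1.64, SE 0.59). Without clusters 3 and 4 the ICAM1 groups overlapped, at 4.04 and 7.38 CPM in the controls and 3.78 and 8.06 with PA. RELB, a subunit of the non-canonical pathway, was at 19.3 and 17.5 CPM against 27.8 and 44.3 (log2 1.07, SE 0.41). The feedback inhibitors NFKBIA, at 93.5 and 114 CPM in the controls and 129 and 208 with PA, and TNFAIP3, at 16.1 and 49.9 against 88.2 and 61.7, had log2 fold changes of 0.68 (SE 0.34) and 0.91 (SE 0.40). Leaving out 1 library gave 0.25 to 0.98 for NFKBIA, lowest without PA replicate 2, and 0.58 to 2.09 for TNFAIP3, highest without control replicate 2. Without clusters 3 and 4 NFKBIA overlapped too, at 84.8 and 107 CPM in the controls and 90.8 and 206 with PA. RELA had the lowest value of the list, -0.44 (SE 0.37). No gene of this list passed an edgeR adjusted p of 0.05, and 4 had an unadjusted p under 0.05, all higher (all genes, 0.996%). Without PA replicate 2 the list median was 0.27. In EPCAM-positive cells of the same libraries the median was 0.67 for this list and 1.53 for the chemokine list.

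The motif GGANNTTCC, the core shared by kappa-B sites of CXC chemokine promoters, was searched for in the same promoter table on both strands. It stood in 6 of the 9 chemokine promoters found (CXCL1, CXCL2, CXCL3, CXCL5, CXCL6 and IL32) and in 5 of the 17 NF-kB gene promoters (ICAM1, NFKB1, NFKBIA, NFKBIZ and TNFAIP3), against 4.57% of all 35116 promoters. The windows of IL32 (chr16:3065153-3065452, plus strand), CXCL5 (chr4:73998628-73998927, minus strand), ICAM1 (chr19:10270870-10271169, plus strand) and NFKBIA (chr14:35404700-35404999, minus strand) are printed as examples. All 4 genes were higher in both PA libraries, IL32 and CXCL5 also without clusters 3 and 4. CXCL2 and NFKBIZ, which also hold the motif, overlapped without those clusters. CXCL2 was then at 12.1 and 20.6 CPM in the controls and 1.89 and 45 with PA. The CXCL1, CXCL2 and CXCL3 windows are alike around the match, as are those of CXCL5 and CXCL6, so these matches are not independent. The motif itself was taken from CXC chemokine promoters, so its count in the chemokine list was partly fixed in advance. Whether the motif goes with the direction was not tested. Capitals mark the matches.
IL32: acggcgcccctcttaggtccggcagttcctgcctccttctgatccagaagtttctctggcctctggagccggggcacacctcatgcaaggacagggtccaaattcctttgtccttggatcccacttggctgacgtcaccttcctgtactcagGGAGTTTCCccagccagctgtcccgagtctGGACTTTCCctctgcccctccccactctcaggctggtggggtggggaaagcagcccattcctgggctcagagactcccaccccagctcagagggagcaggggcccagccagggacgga
CXCL5: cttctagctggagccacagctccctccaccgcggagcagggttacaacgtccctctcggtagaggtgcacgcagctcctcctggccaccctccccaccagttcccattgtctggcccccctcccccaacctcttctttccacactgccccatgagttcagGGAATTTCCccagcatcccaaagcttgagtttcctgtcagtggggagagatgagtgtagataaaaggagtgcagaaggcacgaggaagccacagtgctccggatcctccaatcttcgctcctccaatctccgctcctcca
ICAM1: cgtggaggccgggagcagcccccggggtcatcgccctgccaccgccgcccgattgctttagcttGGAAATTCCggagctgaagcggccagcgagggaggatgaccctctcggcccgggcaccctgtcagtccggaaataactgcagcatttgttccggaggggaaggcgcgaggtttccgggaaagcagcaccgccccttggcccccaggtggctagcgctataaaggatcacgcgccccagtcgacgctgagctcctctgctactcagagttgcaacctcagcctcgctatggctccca
NFKBIA: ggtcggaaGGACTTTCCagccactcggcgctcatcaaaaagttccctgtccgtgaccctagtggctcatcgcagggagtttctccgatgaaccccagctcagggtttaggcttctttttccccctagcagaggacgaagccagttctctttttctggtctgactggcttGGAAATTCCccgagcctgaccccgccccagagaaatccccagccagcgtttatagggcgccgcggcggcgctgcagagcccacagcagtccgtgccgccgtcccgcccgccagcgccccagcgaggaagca
The matches start 98 and 68 bases before the start in IL32, 90 in CXCL5, 186 in ICAM1, and 242 and 81 in NFKBIA. CCL20, ZC3H12A and RELA held none in this window. Other forms of kappa-B site were not searched for.

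Fat-handling genes lay slightly on the higher side. In the list of fatty acid oxidation and lipid droplet genes 18 of 29 were tested, 15 had fold changes above 0, both PA libraries lay above both controls for 8 and below for none (all genes, 51%, 12.7% and 11.9%), and the median log2 fold change was 0.27 (0.50 without PA replicate 2, 0.18 after thinning and 0.12 with equal cell numbers). ANGPTL4 (chr19:8363289-8374370), a PPAR target whose product inhibits lipoprotein lipase, had the largest value, from 25.8 and 71.7 CPM in the controls to 165 and 245 with PA (log2 1.90, SE 0.40, edgeR adjusted p = 0.29). It was 2.77 and 3.94 times the EPCAM-positive level in the controls and 6.07 and 7.51 times with PA. PLIN2, the coat protein of lipid droplets, was at 96.7 and 104 CPM in the controls and 193 and 148 with PA (log2 0.73, SE 0.31). CPT1A, the gate of mitochondrial fatty acid import, was at 29 and 31.3 against 53.9 and 36.3 CPM (log2 0.51, SE 0.37), and ACADVL, which opens the oxidation of long chains, at 54.8 and 78.7 against 103 and 111. HADHB had the lowest value of the list at -0.31. In fatty acid uptake and activation, 8 of 11 tested genes had fold changes above 0; FABP3, a fatty acid binding protein, was at 3.22 and 12.4 CPM in the controls and 19.6 and 60.7 with PA (log2 2.05, SE 0.55), and SLC27A5 had the lowest value, -0.61. Fatty acid synthesis and desaturation had 9 of 12 above 0, from SCD5 at 1.38 to FADS3 at -0.35. The median of that list was 0.19 and ran from -0.03 to 0.38 over the alternative settings. Cholesterol synthesis had 15 of 19 above 0 and 8 with both PA libraries above both controls, a median of 0.34 (0.08 without PA replicate 2, with 11 of 18 above 0), and its largest value was 0.64 for HSD17B7.

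Interferon-stimulated genes lay mostly on the higher side, and the MHC class I gene HLA-E was at 0.08 on the log2 scale. Of the 19 tested genes of this list 14 had fold changes above 0, both PA libraries lay above both controls for 8 and below for 2 (all genes, 12.7% and 11.9%), and 7 had an unadjusted p under 0.05, all higher (all genes, 0.996%). IFI6, an interferon-induced mitochondrial protein (chr1:27666064-27672212), was at 64.5 and 38.2 CPM in the controls and 169.9 and 197 with PA (log2 1.95, SE 0.37, edgeR adjusted p = 0.255). IFIT1, which binds foreign RNA, was at 6.45 and 1.09 CPM against 19.6 and 15.4 (log2 3.21, SE 0.74, and 1.30 without control replicate 2). TAPBP, a peptide loading factor, had the lowest value at -0.26. The list median was 0.54, and -0.13 without PA replicate 2, so its sign rested on that library. It was 0.19 without clusters 3 and 4 (10 of 15 above 0), 0.13 with a stricter count filter (8 of 13) and 0.09 after thinning (8 of 13). IFIT1 passed the count filter only through the PA libraries. With no count filter the list median was 0.56 (23 of 28 above 0). In EPCAM-positive cells of the same libraries the list median was 0.59. IFI6 stood highest in cluster 3 in 3 of the 4 libraries; without clusters 3 and 4 it was at 44.4 and 32.2 CPM in the controls and 138 and 159 with PA.

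**Figure D3:**
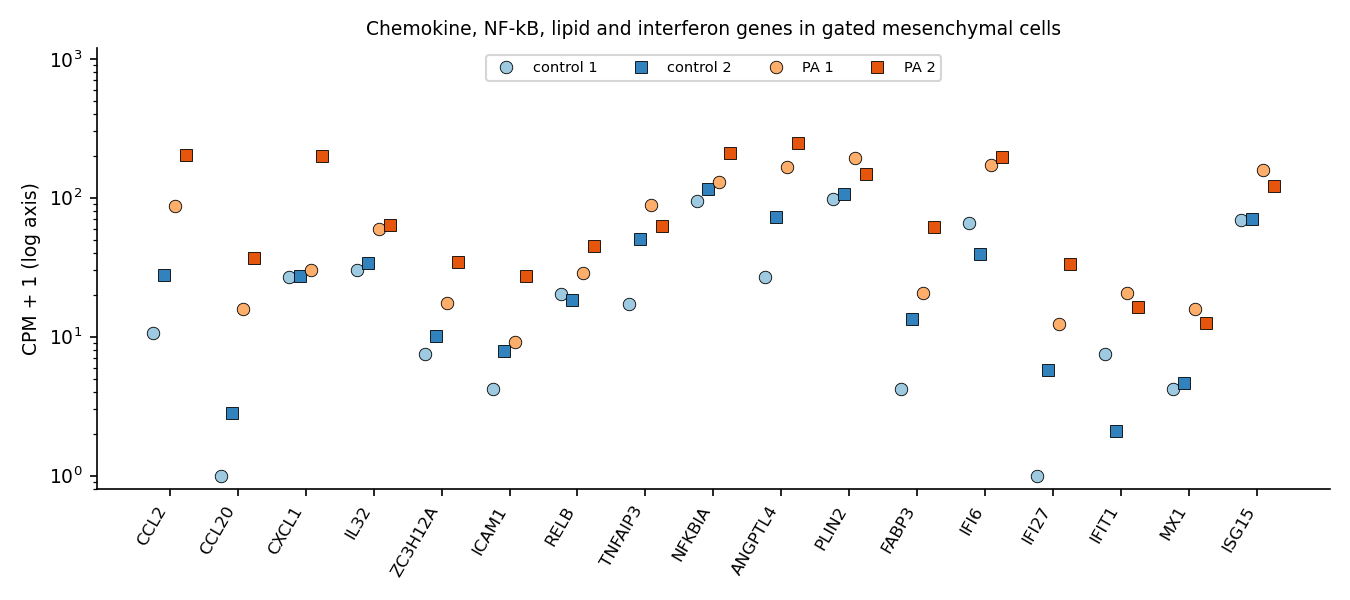
CPM + 1 (log axis) of 17 chemokine, NF-kB, lipid and interferon genes in the gated cells of each library. CCL2, CCL20, IL32, ANGPTL4, IFI6 and IFIT1 lie higher in both PA libraries than in both controls; CXCL1 is high in PA replicate 2 alone.

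Among the other genes of smallest p, RGCC, a regulator of the cell cycle, was at 3.22 and 2.55 CPM in the controls and 18 and 19.4 with PA, MT1X, a metallothionein, at 6.45 and 3.28 against 13.1 and 39.3, and SPINK6, a protease inhibitor, at 0 and 3.28 against 14.7 and 20.9. On the lower side ALDH1A1, a retinaldehyde dehydrogenase, was at 54.8 and 46.6 CPM against 13.1 and 7.47 (log2 -2.41, SE 0.43) and HAND1, a transcription factor of extraembryonic and lateral mesoderm, at 38.7 and 54.3 against 13.1 and 13.4 (log2 -1.87, SE 0.39). ALDH1A1 and HAND1 led cluster 2, whose share of the cells differed between libraries as given above. Within cluster 2 ALDH1A1 was at 567 and 123 CPM in the controls and 53.5 and 2.8 with PA. These levels came from 14, 98, 2 and 1 UMIs. HAND1 overlapped within cluster 2, at 40.5 and 173 CPM against 134 and 8.4. HAND1 was also found in cluster 3, and without clusters 3 and 4 its groups overlapped, at 8.08 and 57.1 CPM in the controls and 13.2 and 2.69 with PA. MT1X then overlapped as well, at 8.08 and 2.72 against 3.78 and 17.5. CHCHD2, ZNF507, MYOF and HIST1H4E were also lower in both PA libraries, with log2 fold changes of -1.19, -1.87, -1.22 and -2.68. Squamous epithelial genes appeared in both directions, S100A7 (4.91) and SPRR3 (2.85) higher and KRT13 (-3.39) lower. RGCC, MT1X, SPINK6 and S100A7 passed the count filter only through the PA libraries, and KRT13 only through the controls. S100A7 lay almost wholly in cluster 3 and without clusters 3 and 4 was at 0 and 0 CPM in the controls and 0 and 0.672 with PA, and SPRR3 then stood at 0 and 0.389 against 0 and 0. KRT13 had 7 and 39 UMIs in cluster 3 of the controls and 0 in that of both PA libraries. Outside clusters 3 and 4 its order was the opposite, at 0 and 0.777 CPM in the controls and 1.89 and 2.02 with PA, on a few UMIs.

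The matrix genes that define the cell type showed no shared shift upward. Of 19 collagen genes tested outside the gate, 5 had fold changes above 0, the median was -0.23, and both PA libraries lay below both controls for 7 and above for 1 (all genes, 11.9% and 12.7%). The collagen median was -0.0046 without PA replicate 1, with 10 of 20 above 0, and -0.61 without PA replicate 2. COL14A1, a fibril-associated collagen, was lowest, at 58 and 63 CPM in the controls and 39.2 and 18.9 with PA (log2 -1.20, SE 0.40). COL26A1 was highest at 0.82. Leaving out 1 library gave -1.68 to -0.68 for COL14A1 and 0.36 to 1.25 for COL26A1. The proteoglycan DCN had -0.82 (-1.19 to -0.28 leaving out 1 library) and the basement membrane protein NID2 0.59. They were the ends of a list of 26 matrix glycoproteins and proteoglycans with a median of -0.03. That median was 0.17 with a stricter cell filter (16 of 26 above 0) and 0.03 without clusters 3 and 4 (14 of 26). In collagen folding and crosslinking 2 of 13 were above 0, from LOXL2 at -0.42 to P4HA1 at 0.35. With no count filter 7 of 17 were above 0, with a median of -0.13. The folding list turned sign without PA replicate 1 (median 0.09, 10 of 16 above 0) and with a stricter cell filter (0.20, 9 of 13). In matrix proteases and inhibitors 10 of 16 were, from MMP23B at -0.76 to MMP1 at 0.82. TGF-β pathway genes were split, 12 of 22 above 0, from TGFB3 at -0.93 to LTBP2 at 1.11. Stellate genes had 7 of 12 above 0, from HGF at -2.47 to NGFR at 0.75. HGF, a hepatocyte mitogen, was at 16.1 and 17.8 CPM in the controls and 9.8 and 0.498 with PA. It was also the lowest of 31 stromal growth factors and antagonists, of which BMP2 was the highest at 1.25; 15 were above 0. Mesenchymal transcription factors had 12 of 23 above 0, from HAND1 to MEOX2 at 1.82.

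Immediate early genes, which answer growth signals and also cell dissociation, lay on the lower side: 1 of 12 tested had a fold change above 0, the median was -0.50, and both PA libraries lay below both controls for 7 (all genes, 11.9%). With no count filter and all 4 libraries the median was -0.13, with 7 of 17 above 0, so the tally depended on which genes were tested. After thinning the median was -0.34, with 5 of 12 above 0. Without PA replicate 1 the median was -0.07 and without control replicate 1 -0.17, each with 7 of 17 above 0. Those 2 fits also tested more genes, so the omitted library and the larger set cannot be told apart. FOSB was at 339 and 247 CPM in the controls and 134 and 157 with PA (log2 -1.01, SE 0.32), and DUSP1, the exception, had 0.16. The handling of the cells was not recorded by library in the labels, and its part was not tested. Of the remaining lists, the medians of acute phase, ER chaperone, NRF2, metallothionein, hypoxia, cell cycle and growth arrest genes turned sign when 1 library was left out, as did those of the protease, TGF-β, stellate, transcription factor and growth factor lists. Several list ends also turned sign when 1 library was left out, among them CDKN2A, CEBPB, ANKRD1, UBE2C and MCM5, as did DUSP1, MMP1, LTBP2, P4HA1, SYNPO2, MT2A, HADHB and CXCL14. Others kept their sign over a wide range, 0.33 to 2.85 for MEOX2, 0.91 to 3.61 for FABP3 and 0.06 to 3.12 for NQO1. The same held for DNAJB9 (0.05 to 1.26), HGF (-4.92 to -0.85), NGFR (0.47 to 6.54), PTCH1 (-1.92 to -0.50) and C3 (0.62 to 1.95). Cell cycle genes had 9 of 22 above 0, from MCM5 (-0.59) to UBE2C (0.52), and growth arrest and p53 genes 10 of 16, from CDKN1B (-0.35) to CDKN2A (1.22). The integrated stress response had 9 of 15 above 0, from SESN2 (-0.44) to CEBPB (1.61), ER chaperones 12 of 17, from SEL1L (-0.40) to DNAJB9 (0.75), and NRF2 targets 7 of 10, from GCLC (-0.45) to NQO1 (0.90). Hypoxia and glycolysis genes had 10 of 16 above 0, from VEGFA (-0.32) to EGLN3 (0.73), Hedgehog and YAP targets 5 of 12, from PTCH1 (-1.11) to ANKRD1 (0.89), and acute phase and complement genes 8 of 11, from CFI (-0.81) to C3 (1.62). Of the metallothioneins 2 of 9 were tested, MT1X and MT2A (0.38), both above 0. MT1X passed the count filter only through the PA libraries. Over the alternative settings the integrated stress response median ran from -0.06 to 0.49. That of Hedgehog and YAP targets ran from -0.42 to 0.06.

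**Figure D4:**
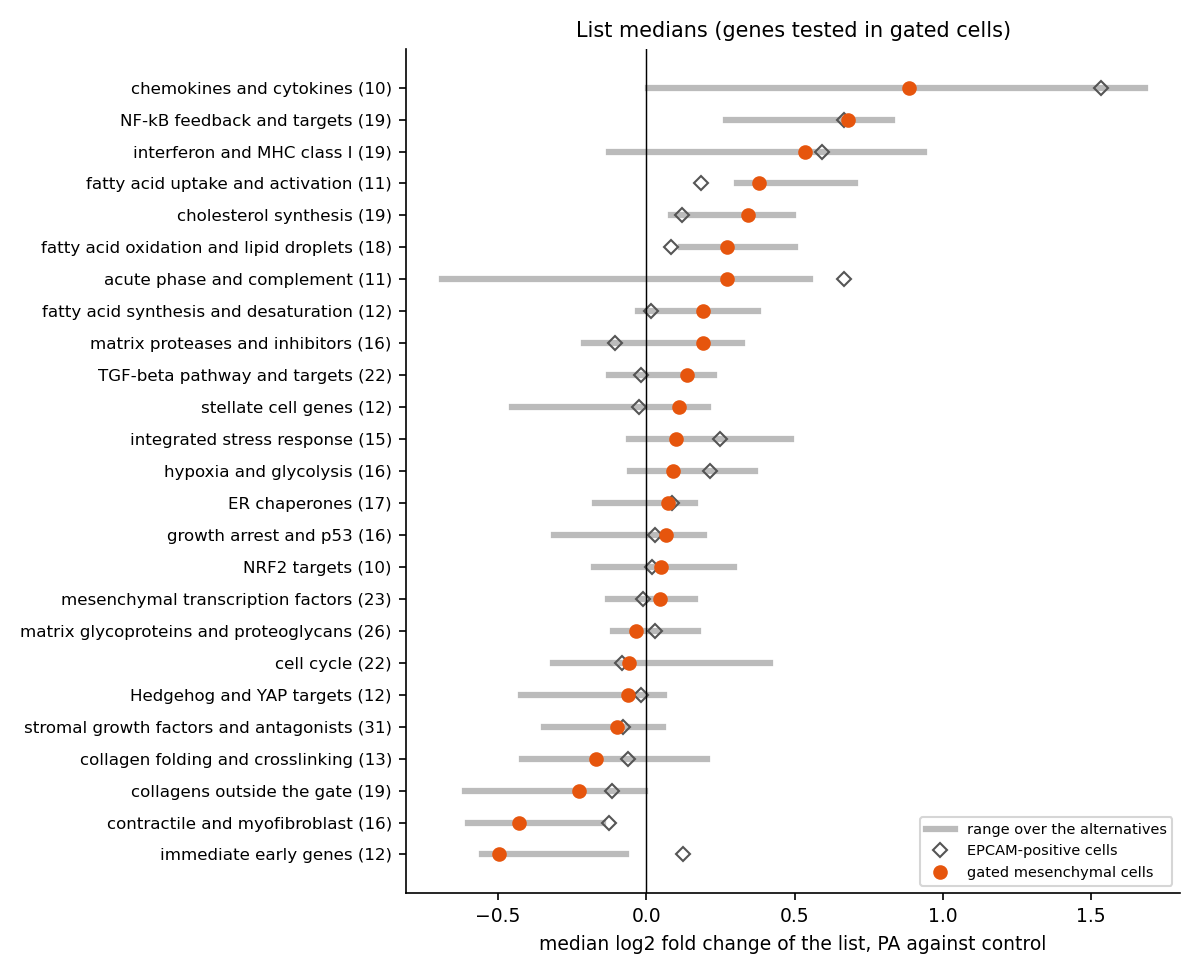
Median log2 fold change, PA against control, of the 25 gene lists with at least 5 genes tested: filled circles, gated cells; open diamonds, EPCAM-positive cells of the same libraries; grey bars, range over the alternative settings in gated cells. Chemokine and NF-kB lists lie furthest right; the contractile and immediate early lists lie furthest left and stay below 0 over their bars.

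Whether PA differed in its effect between the gated cells and the EPCAM-positive cells of the same libraries (18417 cells) was tested as an interaction, with the library as a block. The difference passed an adjusted p of 0.05 for 34 of 13560 genes (0.251%), 15 with a higher effect in gated cells (0.111%) and 19 with a lower one (0.14%). Contractile actins were among those lower in gated cells. For ACTA2 the log2 fold change was -1.60 (SE 0.31) in gated cells and -0.52 (SE 0.32) in EPCAM-positive cells, a difference of -1.13 (SE 0.24, edgeR adjusted p = 0.00448). Over 13 alternatives the ACTA2 difference ran from -1.19 to -0.27, nearest to 0 after thinning, and it no longer passed in 7 of them. For ACTG2 it was -2.15 (SE 0.43) against 0.08 (SE 0.57), a difference of -2.47 (SE 0.46, edgeR adjusted p = 0.000859), but EPCAM-positive cells held under 1 CPM of it, and after thinning to 2000 UMIs the difference was 3.27. ALDH1A1 (-2.54, SE 0.34, edgeR adjusted p = 1.3e-07) and COL14A1 (-1.32, SE 0.33, edgeR adjusted p = 0.0457) were also lower, the latter passing in 6 of 13 alternatives.

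Other called differences came from genes with a larger positive value in EPCAM-positive cells than in gated cells; the edgeR test within EPCAM-positive cells called 14 of 16539 genes (0.0846%), CXCL2 and CXCL3 among them. CTSC, the protease that activates granule enzymes, was at 564 and 633 CPM in gated control cells and 363 and 624 with PA, and at 111 and 175 against 258 and 373 in EPCAM-positive cells, a difference of effect of -1.48 (SE 0.18, edgeR adjusted p = 1.16e-08). The chemokines CXCL2 and CXCL3 had log2 fold changes of 2.12 (SE 0.31) and 2.32 (SE 0.30) in EPCAM-positive cells and 0.76 (SE 0.60) and 0.83 (SE 0.62) in gated cells, and their differences were -1.54 (SE 0.32, edgeR adjusted p = 0.00448) and -1.48 (SE 0.30, edgeR adjusted p = 0.00409). Leaving out 1 library gave -3.34 to -0.34 for CXCL2 and -3.31 to -1.01 for CXCL3, and neither passed without control replicate 2, without PA replicate 1 or after thinning. MGP had a difference of -1.34 (SE 0.20, edgeR adjusted p = 8.96e-06), which ran from -2.05 to -0.31 over 13 alternatives, with a level of 3.9 to 11.8 CPM in EPCAM-positive cells. KRTDAP, a squamous gene, had a difference of -4.73 (SE 0.80, edgeR adjusted p = 0.000113), which rested on PA replicate 2, in which EPCAM-positive cells held 73.9 CPM against 1.21 to 5.25 in the other libraries. SAA1, an acute phase protein, differed by -2.67 (SE 0.62, edgeR adjusted p = 0.0184), but within gated cells it ran 577 and 51.7 CPM in the controls and 8.17 and 732 with PA, so its 2 replicates disagreed in both groups. Nearly all of it lay in cluster 1.

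On the higher side MEF2C, a transcription factor of muscle and connective tissue (chr5:88717117-88904257), was at 32.2 and 28 CPM in gated controls and 65.3 and 72.2 with PA, and at 30.5 and 28.3 against 14.4 and 19.8 in EPCAM-positive cells, a difference of 1.91 (SE 0.32, edgeR adjusted p = 6.7e-05). The difference for IFI6 was 1.26 (SE 0.23, edgeR adjusted p = 0.000859). S100A16 (1.34, SE 0.25, edgeR adjusted p = 0.000859), KRT7 (1.97, SE 0.37, edgeR adjusted p = 0.000859), SPP1 (1.06, SE 0.22, edgeR adjusted p = 0.00409) and S100A7 (4.79, SE 1.07, edgeR adjusted p = 0.0115) were higher as well. S100A16 and SPP1 stood higher in EPCAM-positive than in gated cells in every library, KRT7 in 3 of 4, and S100A7 lay almost wholly in cluster 3. Leaving out 1 library gave -0.14 to 3.30 for KRT7 and -1.11 to 11.64 for S100A7, with the sign turned in both. KRT7 in gated cells was at 0 and 3.11 CPM in the controls and 3.78 and 3.36 with PA without clusters 3 and 4, and its difference of effect was 0.56 and did not pass. MEF2C passed the test in 12 of 13 alternatives, CTSC and IFI6 in 11, ALDH1A1 and ACTG2 in 10, and ACTA2 in 6. Leaving out control replicate 2 brought the count of called genes to 0 (edgeR; 639 stood below 0.05 before adjustment), and it was 31 to 53 without any other library. Without clusters 3 and 4 it was 38, of which 22 were among the 34.

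**Figure D5:**
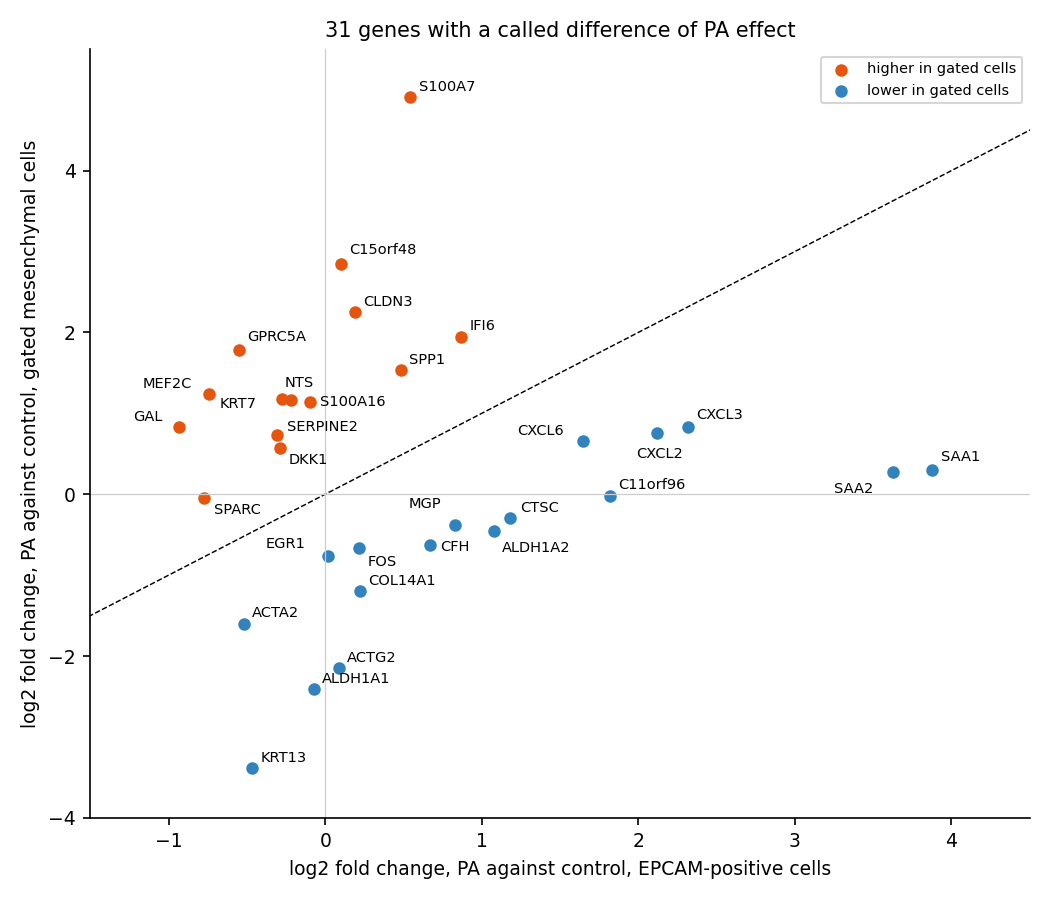
Log2 fold change, PA against control, in EPCAM-positive cells (x axis) and in gated cells (y axis) for 31 of the 34 genes with a called difference of effect (the other 3 were too low to be tested in 1 of the cell classes); the dashed line marks equal effects. ACTA2, ACTG2 and ALDH1A1 lie low on the y axis and nearer to 0 on the x axis, and CXCL2, CXCL3 and SAA1 lie between 0 and 1 on the y axis and beyond 2 on the x axis.

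The PA effect was set beside that of TGFB1, the textbook inducer of myofibroblasts, in cells of the same gate. No gene differed between the 2 effects at an edgeR adjusted p of 0.05 among 11703 tested (0%). An unadjusted p under 0.05 was found for 615, near the share that such a threshold passes where no gene differs. TGFB1 itself called 1 of 11060 genes (0.00904%), GAL, the neuropeptide galanin. GAL stood at 16.81 and 16.02 CPM in the TGFB1 controls and 143 and 114 with TGFB1, against 16.1 and 21.1 in the PA controls and 19.6 and 45.8 with PA. ACTA2 was at 109 and 210.3 CPM in the TGFB1 controls and 214 and 153 with TGFB1. The experiments were separate, and the PA controls were higher than all 4 libraries of the TGFB1 experiment, and the PA libraries lay within their range. The difference of the effects for ACTA2 was -1.93 (SE 0.50, edgeR adjusted p = 0.573), and for MYLK -2.16 (edgeR adjusted p = 0.431). CCL2 was at 60.5 and 74.1 CPM in the TGFB1 controls and 66.3 and 83.8 with TGFB1, and its difference of effects was 2.39 (edgeR adjusted p = 0.44). ANGPTL4 showed a log2 fold change of 1.23 with TGFB1 and 1.90 with PA, a difference of 0.61 (SE 0.49).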

How the data were processed

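Droplet single-cell RNA of human liver organoids (10x Genomics 3′ version 3, per the labels) was deposited as raw counts, whole UMIs per gene and barcode with no normalization, per the file headers and values. Per the submitters' processing notes, Cell Ranger 3.0.2, bcl2fastq, Scanpy and GRCh38 were used; the sources used here give no other settings. Each barcode held at least 500 UMIs as deposited.

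The gate, the gene lists and the rule for named genes (per direction the 10 smallest p with separated groups, the ends of each list with any tested chemokine, NF-kB, lipid droplet or contractile gene, the 5 smallest p of the interaction test, the leading profile and cluster genes) were chosen with earlier results of these data known. Counts were summed over the gated cells of each library and tested with edgeR 4.0.16 (TMM, filterByExpr with a minimum count of 10, quasi-likelihood test), with DESeq2 1.42.0 as an alternative, in R 4.3.3. EPCAM-positive cells passed the same filters with at least 1 EPCAM UMI and gate collagens below 0.1%. Clusters came from scanpy 1.11.5 (2000 variable genes without the gate genes, 30 components, 15 neighbours, resolution 0.3). Scrublet's own threshold marked under 0.1% of cells, so as an alternative the highest-scoring 0.8% per 1000 barcodes were removed. Positions are from GENCODE 44 (GRCh38), matched by identifier. The edgeR fits for PA, the interaction and PA minus TGFB1 were tested on simulated counts, with a dispersion of 0.0584 for every gene. They recovered 7, 2 and 1% of 2-fold changes and 80, 42 and 25% of 4-fold changes, in that order. Most 2-fold changes would thus be missed. Real genes differ in spread, and the changed genes were drawn only above a minimum mean count. Recovery of 4-fold changes in the real data may therefore be lower. The CArG search was added after values were seen. A few genes that the rule names are not reported here.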

Additional observations from a re-analysis of the deposited data

Results flagged for a closer look

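The effect of PA differed between gated mesenchymal and EPCAM-positive cells for 34 genes, by the edgeR test of the difference itself. Among the genes named above, the log2 effect was higher in gated cells for MEF2C (1.91), IFI6 (1.26), S100A16 (1.34), KRT7 (1.97), SPP1 (1.06) and S100A7 (4.79). It was lower in gated cells for CTSC (-1.48), ALDH1A1 (-2.54), MGP (-1.34), KRTDAP (-4.73), ACTG2 (-2.47), ACTA2 (-1.13), KRT13 (-2.99) and COL14A1 (-1.32). Called as well were CXCL2, CXCL3 and SAA1, lower with the values given above, CXCL6, also lower, and GAL, higher. The sign turned for 3 of the 34, and 18 more moved by over 1.5 times, when 1 library was left out. S100A7 lay in cluster 3 of the gated cells and KRTDAP rested on 1 library, as given with their values, and the difference for KRT13 was 2.04 without clusters 3 and 4. The difference for CXCL6 ran from -1.97 to -0.02 leaving out 1 library. No group had enough libraries for a search for outlying samples.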

How the results depend on the processing

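The count of genes called for PA against control was 0, and 41 with a replicate block, 31 with no filter on low counts, 2 with the stricter gate, 4 after thinning to 2000 UMIs and 2 with DESeq2; leaving out 1 library gave 3 to 81. It stayed at 0 with RLE size factors, a stricter count filter, a stricter cell filter, predicted doublets removed, equal cell numbers, up to 1 EPCAM UMI, or without clusters 3 and 4. The interaction count of 34 was 93 with the replicate block and 17 after thinning, of which 7 were among the 34; leaving out 1 library gave 0 to 53. The PA minus TGFB1 count of 0 was 45 with the replicate block and 66 with no filter, and 0 to 77 leaving out 1 library. The cause of these differences was not tested. Leaving out 1 library left its group with a single sample, assumed to vary like the rest. The labels do not say that a replicate number marks a shared batch, and the 2 pairs had deviations correlated at 0.106 across genes, so the block fit is given here only. The share difference of -2.19 points kept its sign in all alternatives, from -3.30 to -1.07 leaving out 1 library.

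Of single genes, the PA against control direction was reversed in 29 gene and setting pairs and kept in 1148, with 76 more passing the threshold. Leaving out 1 library turned the sign of SYNPO2 (-0.30 to 1.26), CXCL14 (-0.36 to 0.78), DUSP1 (-1.48 to 0.80), MMP1 (-1.52 to 1.53), LTBP2 (-0.00842 to 1.52), HADHB (-1.11 to 0.10), ANKRD1 (-0.22 to 1.89), CDKN2A (-0.79 to 1.83), P4HA1 (-0.0857 to 0.65), MT2A (-0.48 to 0.92), UBE2C (-0.46 to 0.97), CEBPB (-0.28 to 2.21) and MCM5 (-1.18 to 0.12), given as lowest and highest value. The sign turned with the stricter gate for CXCL14 (-0.25), VEGFA (0.23) and ANKRD1 (-0.97). The sign turned after thinning for ACADM (-0.27), HADHB (0.14), TAPBP (0.0387), VEGFA (0.0254) and UBE2C (-0.36). The sign turned with equal cell numbers for CXCL14 (-0.23), DUSP1 (-0.0127), UBE2C (-0.34) and BCL3 (-0.0803). The sign turned with up to 1 EPCAM UMI for CXCL14 (-0.33). The sign turned without clusters 3 and 4 for CXCL14 (-0.20). For the difference of effect, 6 pairs were reversed, 288 kept their call and 145 no longer passed. Leaving out 1 library turned the sign of S100A7 (-1.11 to 11.64), KRT7 (-0.14 to 3.30) and KRTDAP (-5.499 to 3.22), given as lowest and highest value. The sign turned after thinning for ACTG2 (3.27). The sign turned without clusters 3 and 4 for KRT13 (2.04). Depth limits all of this: control replicate 1 held 310162 gated UMIs, where a count of 0 allows up to 9.67 CPM.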
